A study of Mus musculus with 16 samples.

Results

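The genes described here are Hbegf and 7 further genes of EGF receptor signalling, Nrg1, Egfr, Erbb2, Erbb4, Ptpn11, Errfi1 and Spry4. They were taken by name, with earlier results of these data known, and all 8 are among the 13964 genes measured. The measurements are RNA sequencing libraries of valve tissue that was laser-cut from the hearts of C57BL/6 embryos at E14.5 (E counts embryonic days), a time of outflow valve growth and remodelling. There are 4 groups of 4 libraries. Mutant aortic and mutant pulmonary valves came from Jag1flox;Nkx2.5-Cre embryos, and wild-type aortic and wild-type pulmonary valves came from WT embryos. The Cre recombinase is active where the cardiac gene Nkx2-5 is active, so floxed Jag1 is deleted in those cells and their descendants. Mutants carry Cre in addition to floxed Jag1, and whether the WT embryos carry either is not stated. Aortic libraries were made as library batch 1 and pulmonary libraries as batch 2, and an effect of valve cannot be told apart from one of batch. Mutant and wild type are compared within a batch.

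HB-EGF, the product of Hbegf, is made as a membrane-bound growth factor, is cut free by metalloproteases and binds the EGF receptor and the receptor ErbB4. Receptor pairs of this family pass the signal on through adaptors and the phosphatase SHP2 to Ras and the kinase ERK, while feedback inhibitors made in response to the signal damp it. In the mouse, EGF receptor signalling limits the growth of the outflow valves, and embryos that lack Hbegf or have little EGF receptor activity form enlarged valves. Neuregulin 1 from the endocardium, the inner lining of the heart, acts on the neighbouring muscle through ErbB2 and ErbB4.

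Whole reads recovered from the deposited values summed to 4.56 to 8.68 M per library over the measured genes (M, megareads, median 7.37 M). Values are normalised counts, which are reads scaled to library size and then between libraries by trimmed means, and the 8 genes were read between 7 and 1178 times in a library. Libraries 1 to 4 of a group come from different litters, and within a valve a mutant and a wild-type library of the same number share a litter. The labels tie no valve to an embryo, so 1 embryo may have given both an aortic and a pulmonary library, and p-values measure the spread between these samples. The libraries fell into 2 sets by the mean of the log2 levels of 14 markers of skeletal muscle, which defines no group of the study. This mean was 0.412 to 1.98 in 6 libraries, which are mutant aortic 4, mutant pulmonary 4, wild-type aortic 2 and 4 and wild-type pulmonary 2 and 4. It was 4.70 to 6.42 in the other 10 libraries, 6 of them mutant and 4 wild type. Litter pair 2 of each valve thus sets a mutant library of the 10 against a wild-type library of the 6. Endocardial markers averaged 5.72 to 6.64 in the 6 libraries and 3.89 to 6.07 in the 10, and valve mesenchyme markers 8.16 to 8.85 in the 6 and 6.71 to 8.35 in the 10, with none of the measured genes of either list at 0 in any library. The skeletal muscle genes Myog and Myf5 were at 0 in 5 of the 6 libraries. Cardiomyocyte (heart muscle cell) markers averaged 2.775 to 5.27 in the 6 and 4.38 to 7.67 in the 10. Few muscle transcripts, below, therefore means few of skeletal muscle only. Skeletal muscle is no part of a valve, and its part in the differences below was not tested beyond the fits within each set and those with the marker mean as a covariate.

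Jag1, which encodes a membrane ligand of Notch receptors and is the floxed gene, checks the labels. It averaged 9.38 ± 2.39 normalised counts in mutant aortic and 33.3 ± 17.1 in wild-type aortic valves (SD, n = 4 each). In the pulmonary valve it averaged 5.68 ± 4.63 in mutants and 18.5 ± 5.34 in wild type (SD, n = 4 each). Mutants and wild type did not overlap in either valve, with an exact two-sided permutation p of 0.0286 in each, the smallest that 70 assignments allow. The count includes reads from exons outside the floxed part, so what remains in mutants does not measure the intact allele. Across all genes Jag1 did not pass (adjusted p = 0.218, limma, mean of both valves). In bulk tissue, here and below, fewer cells of a type and less RNA per cell cannot be told apart.

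None of the 8 genes changed with genotype past the threshold in either valve. With limma at an adjusted p below 0.05, 0 of 8 were called in the aortic valve, the pulmonary valve or the mean of both, against 0% of the 13963 genes tested in each of these comparisons. At an unadjusted p below 0.05, again 0 of 8 were called, against 1.4% of all genes in the aortic valve, 3.13% in the pulmonary valve and 2.79% for the mean of both. The adjusted p of each of the 8 was 1.00 in all 3 comparisons. The edgeR test called 0 of all genes in each comparison, and DESeq2 called 0 in the aortic valve, 2 in the pulmonary valve and 5 for the mean of both, with none of the 8 genes among them. With litter as a block, limma called 1 gene for the mean of both valves, which was none of the 8. In no gene and neither valve were all mutant libraries above or all below the wild-type libraries, so 0 of 16 gene and valve pairs were free of overlap. Among all genes, 0.759% in the aortic and 0.938% in the pulmonary valve were higher without overlap in mutants, and 0.824% and 1.05% were lower.

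**Figure D1:**
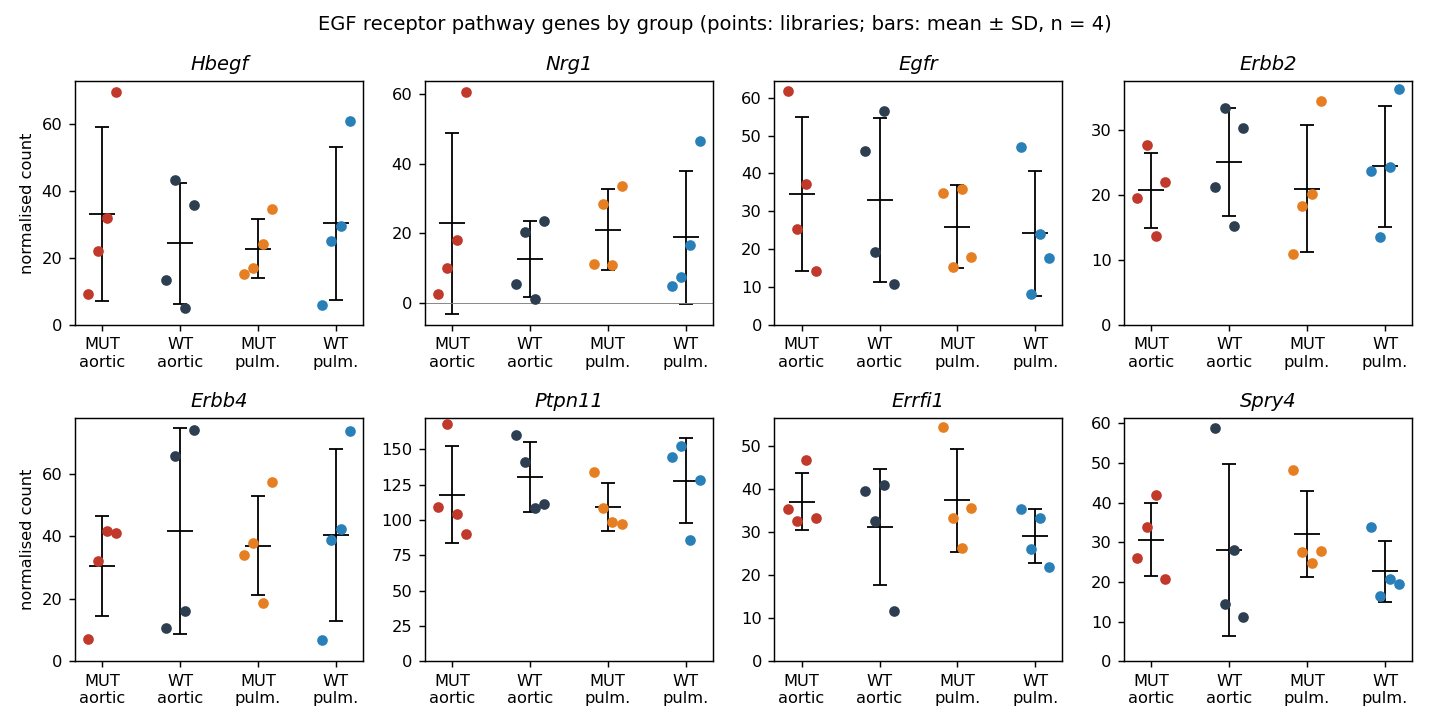
Normalised counts of the 8 genes (vertical axes, linear) in mutant (MUT) and wild-type (WT) aortic and pulmonary (pulm.) valves. Points are libraries 1 to 4 from left to right, and bars are the mean ± SD (n = 4). Mutant and wild-type points overlap for every gene in both valves, and the highest value is 58.4 times the lowest for Nrg1 and 1.96 times for Ptpn11.

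Hbegf did not show a mutant level that stood apart from wild type. The gene (ENSMUSG00000024486) spans positions 36504927 to 36515805 of chromosome 18 in GRCm38, minus strand. Mutant aortic libraries 1 to 4 had 9.03, 21.9, 31.8 and 69.5 normalised counts of Hbegf, against 13.3, 43.2, 4.89 and 35.6 in wild-type aortic libraries. Mutant pulmonary libraries had 15.1, 17.04, 24.1 and 34.6, against 5.80, 24.97, 29.4 and 60.9 in wild-type pulmonary libraries. The highest library, mutant aortic 4, and the lowest, wild-type aortic 3, lie in the same valve, and within each group the values spread more than the group means differ. Hbegf averaged 33.1 ± 26.0 in mutant and 24.3 ± 18.1 in wild-type aortic valves (SD, n = 4 each), a log2 difference of 0.49 (95% interval -1.003 to 1.98). It averaged 22.7 ± 8.82 in mutant and 30.3 ± 22.9 in wild-type pulmonary valves (SD, n = 4 each), a log2 difference of -0.09 (95% interval -1.58 to 1.40). Exact two-sided permutation tests over the libraries gave p = 0.6 in the aortic and p = 0.914 in the pulmonary valve, and 0.914 for each after adjustment over both valves. Of the 8 litter pairs, 3 had more Hbegf in the mutant and 5 had less. The pooled difference was 0.20 (SE 0.50, 95% interval -0.86 to 1.26), an interval that reaches from 0.552 to 2.39 times the wild-type level. The sign of the aortic difference rests on wild-type library 3, without which it is -0.078, and that of the pulmonary difference turns without wild-type 3 (0.023) or 4 (0.37) or mutant 1 (0.072) or 2 (0.017). Within the 6 libraries with few muscle transcripts the difference was 0.81 in the aortic and -0.17 in the pulmonary valve, each resting on 1 mutant library. Within the other 10 it was 1.10 and 0.43 (adjusted p = 0.833 and 0.989, limma).

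Nrg1, the neuregulin 1 gene, varied more between libraries than any other of the 8. It (ENSMUSG00000062991) spans 31814551 to 32884029 on chromosome 8, minus strand. Mutant aortic libraries had 2.60, 10.02, 17.9 and 60.6 normalised counts of Nrg1, against 5.30, 20.4, 1.04 and 23.5 in wild-type aortic libraries. Mutant pulmonary libraries had 11.1, 28.5, 10.9 and 33.6, against 4.78, 7.48, 16.4 and 46.6 in wild-type pulmonary libraries. The groups overlapped in both valves, and as with Hbegf the extremes were mutant aortic 4 and wild-type aortic 3, where only 7 reads were counted. The log2 difference was 0.70 (95% interval -1.17 to 2.56) in the aortic and 0.46 (95% interval -1.40 to 2.33) in the pulmonary valve, and 4 of 8 litter pairs had the higher value in the mutant. Within the 6 libraries with few muscle transcripts the difference was 1.43 in the aortic and 0.78 in the pulmonary valve, each resting on 1 mutant library. Within the other 10 it was 1.34 and 0.69 (adjusted p = 0.833 and 0.977, limma). Of the exonic bases of Nrg1, 482 of 10351 are shared with an antisense gene, Gm26578, and whether the counting used strand is not stated.

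None of the 3 receptor genes had a genotype difference beyond the spread of its libraries. Egfr encodes the EGF receptor itself, the main receptor of HB-EGF. The gene (ENSMUSG00000020122) spans 16752203 to 16918158 on the plus strand of chromosome 11. Mutant aortic libraries had 61.8, 25.2, 37.2 and 14.2 normalised counts of Egfr, against 45.9, 19.1, 56.5 and 10.7 in wild-type aortic libraries. Mutant pulmonary libraries had 34.8, 15.2, 35.8 and 18.03, against 46.9, 8.01, 24.1 and 17.6 in wild-type pulmonary libraries. The groups overlapped in both valves, and 3 of 4 litter pairs in each valve were higher in the mutant. The log2 difference was 0.15 (95% interval -1.06 to 1.35) in the aortic and 0.25 (95% interval -0.95 to 1.46) in the pulmonary valve. Pooled over valves, the difference of Egfr was 0.27 within the 6 libraries with few muscle transcripts and -0.35 within the other 10 (adjusted p = 0.955 and 0.846, limma).

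Erbb2 encodes a receptor that binds no ligand of its own and acts as the partner of the others. The gene (ENSMUSG00000062312) spans 98412470 to 98437716 on chromosome 11, plus strand. Erbb2 had 19.6, 27.7, 13.7 and 22.05 normalised counts in mutant aortic libraries, against 21.2, 33.4, 15.3 and 30.4 in wild-type aortic libraries, so the mutant was the lower library in each of the 4 aortic litter pairs. Pulmonary libraries had 10.99, 18.4, 20.2 and 34.5 in mutants, against 23.7, 13.5, 24.3 and 36.3 in wild type. The groups overlapped in both valves even so, and the log2 difference was -0.24 in each (95% intervals -1.02 to 0.55 in the aortic and -1.02 to 0.54 in the pulmonary valve). Pairs lower in the mutant numbered 7 of 8, the most of the 8 genes, with a pooled difference of -0.24 (SE 0.26). For Erbb2 too, the share of all genes with as many pairs in 1 direction was not taken. Its median was 31.86 in the 6 libraries with few muscle transcripts and 19.85 in the other 10. Pair 2 of each valve sets a mutant of the 10 against a wild type of the 6. Within the 6 the pooled difference of Erbb2 was 0.049, and within the 10 it was -0.22. Erbb2 shares 9 exonic bases with Mien1 on the other strand.

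Erbb4 encodes a receptor for neuregulins that also binds HB-EGF. The gene (ENSMUSG00000062209) spans 68032186 to 69108059 on chromosome 1, minus strand. Erbb4 had 7.30, 32.3, 41.6 and 41.1 normalised counts in mutant aortic libraries, against 10.7, 65.8, 16.3 and 74.2 in wild-type aortic libraries. Its values were 34.1, 37.8, 18.8 and 57.4 in mutant pulmonary libraries, against 6.82, 38.9, 42.4 and 73.9 in wild-type pulmonary libraries. The highest value in each valve was a wild-type library low in skeletal muscle markers. The log2 difference was -0.26 (95% interval -1.79 to 1.27) in the aortic and 0.16 (95% interval -1.37 to 1.68) in the pulmonary valve. Within the 10 libraries high in skeletal muscle markers, the pooled difference was 0.69 (adjusted p = 0.817, limma), and within the other 6 it was -0.33 (adjusted p = 0.904, limma), against -0.05 over all 16.

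Ptpn11 encodes SHP2, a phosphatase needed for full activation of Ras by the receptors, and it was the steadiest of the 8. The gene (ENSMUSG00000043733) spans 121130533 to 121191397 on chromosome 5, minus strand. Ptpn11 had 109, 168.1, 104 and 90.03 normalised counts in mutant aortic libraries, against 160.0, 141, 108 and 111 in wild-type aortic libraries. Pulmonary libraries had 134, 109, 98.4 and 96.8 in mutants, against 145, 153, 85.7 and 128 in wild type. Its highest value was 1.96 times its lowest, and 11.3% of all genes had a smaller SD of the log2 level over the 16 libraries. The pooled log2 difference was -0.18 (SE 0.16, 95% interval -0.53 to 0.16), and 6 of 8 litter pairs were lower in the mutant. Within the 6 libraries with few muscle transcripts the pooled difference of Ptpn11 was -0.50, and within the other 10 it was -0.034 (adjusted p = 0.852 and 0.983, limma).

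The feedback inhibitors Errfi1 and Spry4 had the smallest unadjusted p of the 8 genes for the mean of both valves (0.172 and 0.173, limma), though neither passed the threshold. Errfi1 encodes MIG6, which binds the EGF receptor kinase and blocks it, and its gene (ENSMUSG00000028967) spans 150853919 to 150868892 on chromosome 4, plus strand. Errfi1 had 35.5, 32.6, 46.8 and 33.4 normalised counts in mutant aortic libraries, against 39.7, 32.6, 41.0 and 11.8 in wild-type aortic libraries. Its pulmonary values were 54.5, 33.4, 26.5 and 35.6 in mutants, against 35.5, 26.0, 33.4 and 22.02 in wild type. The mutant mean was the higher in both valves, by less than the interval of either difference, and wild-type aortic 4 lay below all other libraries. The pooled log2 difference was 0.34 (SE 0.24, 95% interval -0.17 to 0.86, adjusted p = 1.00, limma), with 5 of 8 litter pairs higher in the mutant.

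Spry4 encodes a Sprouty protein that restrains Ras and ERK signalling, and its gene (ENSMUSG00000024427) spans 38586247 to 38601415 on chromosome 18, minus strand. Spry4 had 26.1, 34.0, 41.9 and 20.8 normalised counts in mutant aortic libraries, against 58.8, 14.4, 28.2 and 11.2 in wild-type aortic libraries. Its pulmonary values were 48.3, 27.6, 24.8 and 27.9 in mutants, against 33.8, 16.6, 20.8 and 19.6 in wild type. In the pulmonary valve all 4 litter pairs were higher in the mutant, and in the aortic valve 3 of 4, so 7 of 8 pairs had this direction, the most of the 8 genes. As for Erbb2, the share of all genes with as many pairs in 1 direction was not taken. Pair 2 of each valve sets a mutant high in skeletal muscle markers against a wild type low in them. Spry4 had a median of 31.0 in the libraries high in these markers and 18.1 in the low ones. The pooled log2 difference was 0.42 (SE 0.30, 95% interval -0.20 to 1.05, adjusted p = 1.00, limma). Within the 10 libraries high in skeletal muscle markers, the pooled difference was -0.0071 for Spry4 and -0.0049 for Errfi1, and within the other 6 it was 0.63 for Spry4 and 0.64 for Errfi1 (adjusted p from 0.862 to 0.998, limma).

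**Figure D2:**
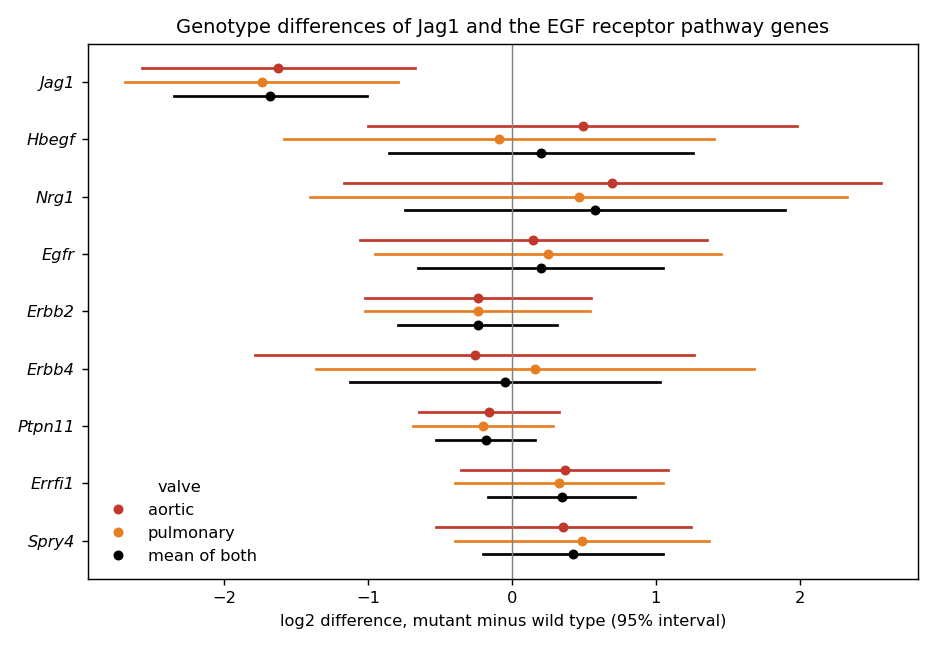
Log2 difference, mutant minus wild type (horizontal axis), of Jag1 and the 8 genes in the aortic valve (red), the pulmonary valve (orange) and the mean of both (black), with 95% intervals from limma. The intervals of the 8 genes include 0 in each comparison, and those of Jag1, at -1.62, -1.74 and -1.68, do not.

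None of the 8 genes passed the threshold for a difference between the valves, in genotype effect or in level. For the genotype effect in the pulmonary minus that in the aortic valve, 0 of 8 were called, against 0% of all genes, and 0 of 8 at an unadjusted p below 0.05, against 1.89%, with the smallest p, 0.569, for Hbegf (limma). For pulmonary minus aortic level, 0 of 8 were again called, against 0% of all genes, and 0 of 8 at an unadjusted p below 0.05, against 0.337%, with the smallest p, 0.383, for Egfr. Levels can be set beside each other between genes only per length, here normalised counts per kilobase of the longest coding transcript, averaged over the 16 libraries. On that scale Ptpn11 was highest at 21.7 ± 4.62 (SD, n = 16), above the next gene by more than either SD. Hbegf at 11.6 ± 7.77 and Errfi1 at 11.1 ± 3.21 followed, and did not differ beyond their spread. Spry4 averaged 5.98 ± 2.66, Erbb2 4.55 ± 1.56, Nrg1 3.47 ± 3.07, Erbb4 3.11 ± 1.84 and Egfr 2.88 ± 1.63 per kilobase, and no neighbours in this run differed by more than the larger of their SDs. The place of Egfr and Nrg1 depends on the transcript used, since the coding transcripts of Egfr run from 2943 to 10208 bases and those of Nrg1 from 1778 to 5415.

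The 8 genes did not vary alike over the libraries. The SD of the log2 level over the 16 libraries was 1.34 for Nrg1, 1.06 for Erbb4 and 1.04 for Hbegf, and 96.2%, 90.7% and 89.7% of all genes had a smaller one. It was 0.84 for Egfr and 0.61 for Spry4, and 0.49 or less for Erbb2, Errfi1 and Ptpn11. The highest Nrg1 level was 58.4 times the lowest, the highest Hbegf level 14.2 times and the highest Egfr level 7.71 times. This spread runs across genotypes, as the values above show.

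Part of it followed the sets of libraries that differ in skeletal muscle markers. Hbegf was 24.97 to 69.5 normalised counts in the 6 libraries with little of these markers (median 39.4) and 4.89 to 31.8 in the other 10 (median 16.1). Erbb4 had a median of 61.6 in the 6 and 25.5 in the 10, and Nrg1 28.5 and 10.5. Egfr ran the other way, at 8.01 to 19.1 in the 6 libraries (median 15.9) and 15.2 to 61.8 in the 10 (median 36.5). Spry4 had a median of 18.1 in the 6 and 31.0 in the 10, while Ptpn11 had medians of 119.7 and 109. The medians were 31.86 and 19.85 for Erbb2, and 29.31 and 35.5 for Errfi1. Tbx20, a transcription factor of valve mesenchyme, lay at 1032 to 1744 in the 6 and 98.0 to 976 in the 10.

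**Figure D3:**
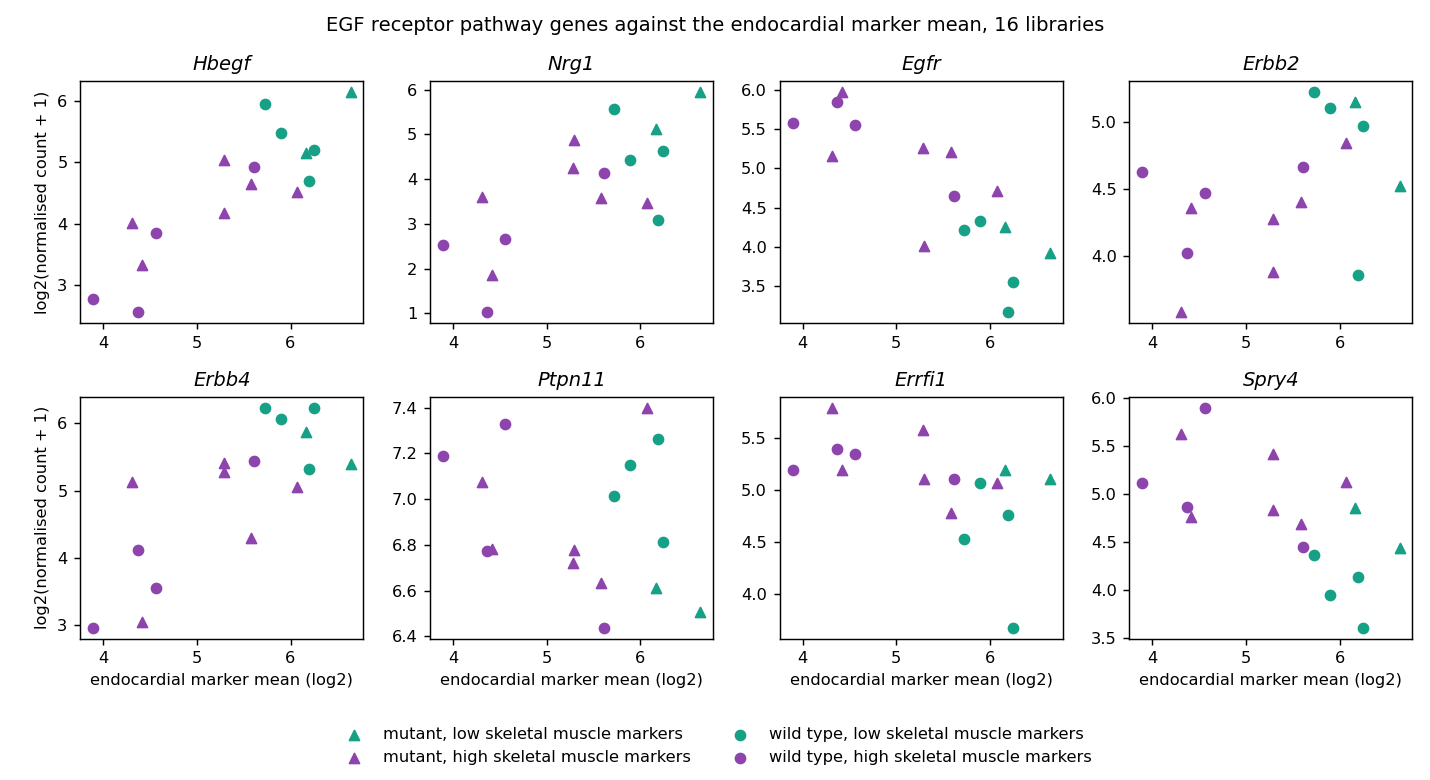
Level of each of the 8 genes as log2(normalised count + 1) (vertical axes, ranges differ) against the mean log2 level of 12 endocardial markers (horizontal axes) in the 16 libraries. Triangles are mutant and circles wild-type libraries, and the 6 libraries low in skeletal muscle markers are green. Hbegf, Nrg1 and Erbb4 are high and Egfr is low in the green libraries, where endocardial markers are high. Among the green libraries alone, the plotted values have r = 0.0662 for Hbegf, 0.149 for Nrg1, -0.661 for Erbb4 and -0.403 for Egfr. With valve means removed these are -0.0822, 0.0679, -0.784 and -0.471 in the same order. The rise of Hbegf, Nrg1 and Erbb4 over the plot is thus not clear within them, and Egfr has a negative r there too.

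Because the libraries form these sets, relations between the genes were measured within the 10 libraries high in skeletal muscle markers, 5 per valve, with the mean of each valve taken off. Over the 28 pairs of the 8 genes, none passed an exact permutation test within valves after adjustment over the 28, and 7 had an unadjusted p below 0.05. The share among pairs of all genes was not taken, so the 7 cannot be read as a trait of these genes. By rho the pair closest to passing was Egfr with Nrg1, at -0.891 (permutation p = 0.00194, adjusted 0.0544). Its r was -0.822 (permutation p = 0.00521, adjusted 0.0729), and -0.774 without the 2 libraries farthest from the median of Egfr. Wild-type aortic 3, the lowest in Nrg1, was kept in that value. By r the pair shared its adjusted p with Hbegf and Nrg1. Hbegf with Nrg1 had r = 0.874 (permutation p = 0.00465, adjusted 0.0729) and rho = 0.842 (permutation p = 0.00861, adjusted 0.0972). Without wild-type aortic 3 and wild-type pulmonary 1, the libraries farthest from the median of Hbegf, r was 0.719. These libraries share depth scaling and differ in endocardial and Schwann cell markers, and some share a litter. In the 6 libraries with few muscle transcripts, Hbegf and Nrg1 had r = 0.885 (exact permutation p = 0.0833, adjusted 0.726), and none of the 28 pairs had an unadjusted p below 0.05. Egfr and Nrg1 had r = 0.661 there, of the opposite sign to the 10 libraries. A valve alone holds 5 or 3 libraries of a set, too few for a value within a batch.

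Against the 9 marker lists in the 10 libraries, none of 72 relations passed after adjustment, and 9 had an unadjusted p below 0.05. The share of such relations among all genes was not taken for these lists. Those 9 relations, and the ones named below, thus cannot be read as a trait of the genes described here. Hbegf had r = 0.83 with the endocardial marker mean (permutation p = 0.00493, adjusted 0.313) and rho = 0.83 (permutation p = 0.00472, adjusted 0.17), with r = 0.752 when the libraries farthest in that mean were left out. Egfr had r = -0.768 with the same mean (permutation p = 0.0184, adjusted 0.313) and rho = -0.745 (permutation p = 0.0333, adjusted 0.354). Leaving out the same libraries gave -0.473 for Egfr, so that relation rests in part on them. Hbegf also had r = -0.726 with the Schwann cell marker mean (permutation p = 0.022, adjusted 0.313) and rho = -0.867 (permutation p = 0.00465, adjusted 0.17), with r = -0.575 without the libraries farthest in it. In the 6 libraries with few muscle transcripts, Hbegf had r = -0.0822 with the endocardial mean (exact permutation p = 0.833, adjusted 1) and rho = -0.0857, and Egfr r = -0.471 (exact permutation p = 0.389, adjusted 0.875) and rho = -0.6. Hbegf with the Schwann cell mean had r = -0.687 there (exact permutation p = 0.222, adjusted 0.875) and rho = -0.486.

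**Figure D4:**
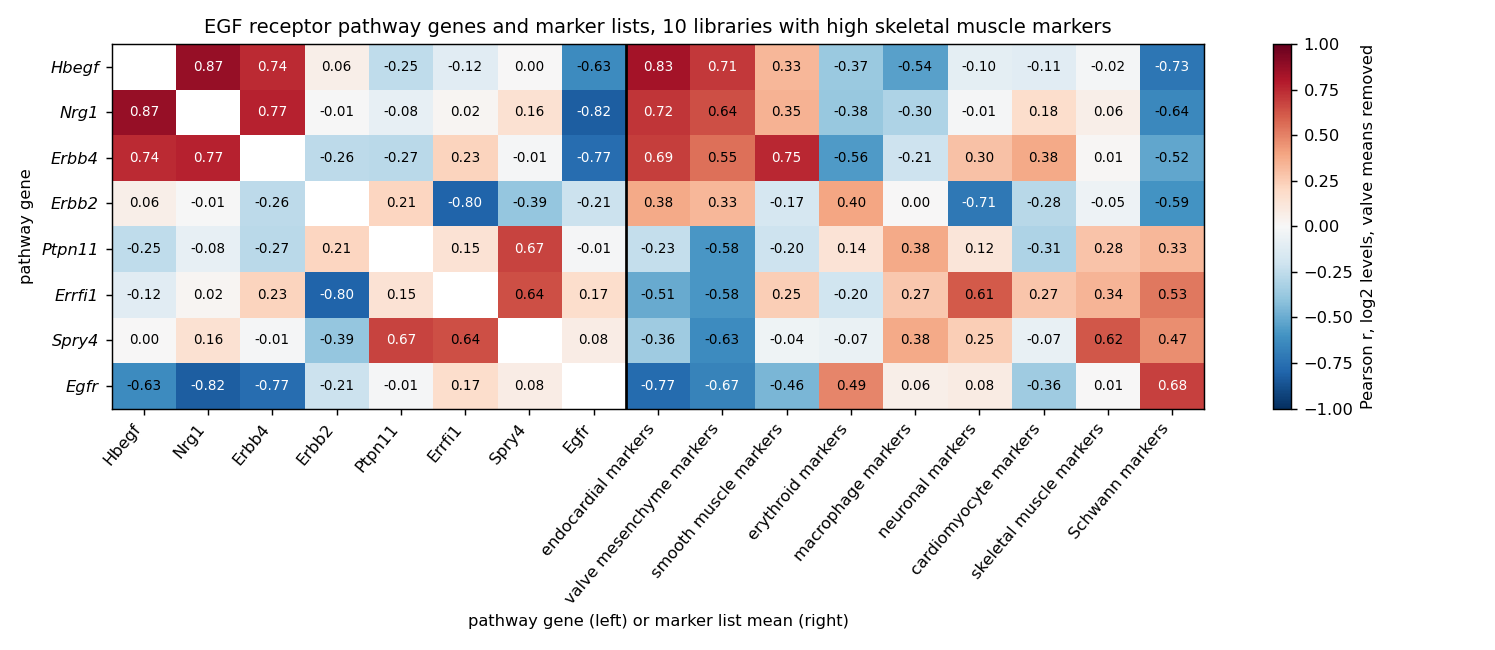
Pearson correlation of the log2 levels of the 8 genes with each other (left of the black line) and with the mean log2 level of 9 marker lists (right) in the 10 libraries high in skeletal muscle markers, with valve means removed. Hbegf, Nrg1 and Erbb4 form a block of positive values, at 0.74 to 0.87 among themselves, and their values against Egfr lie between -0.63 and -0.82, though no pair passed after adjustment. In the other 6 libraries r was 0.885 for Hbegf with Nrg1, 0.128 for Hbegf with Erbb4 and 0.243 for Erbb4 with Nrg1. Egfr had the opposite sign there, at 0.595 with Hbegf, 0.661 with Nrg1 and 0.487 with Erbb4.

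The promoters of the receptor genes Egfr and Erbb4 are shown as a description, and a link between them and the levels was not tested. Egfr and Erbb4 ran in opposite directions in the 10 libraries high in skeletal muscle markers, without passing the threshold (r = -0.765, permutation p = 0.0197, adjusted 0.11, and rho = -0.806, permutation p = 0.0117, adjusted 0.0972). They did not in the other 6 (r = 0.487, exact permutation p = 0.389, adjusted 0.726, and rho = 0.257, exact permutation p = 0.75, adjusted 0.947). Each promoter is the 250 bases before the annotated start, 5′ to 3′ on the strand of the gene, from RefSeq on GRCm38.p6. They lie at chr11:16751953-16752202 on the plus strand for Egfr and at chr1:69108060-69108309 on the minus strand for Erbb4. Capitals mark matches to the GC box, GGGCGG, which reads as CCGCCC when it lies on the opposite strand.
Egfr: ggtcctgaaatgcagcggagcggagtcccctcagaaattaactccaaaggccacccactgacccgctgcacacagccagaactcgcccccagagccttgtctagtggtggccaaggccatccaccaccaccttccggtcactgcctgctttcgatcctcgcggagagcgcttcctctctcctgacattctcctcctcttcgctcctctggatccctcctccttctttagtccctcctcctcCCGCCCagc
Erbb4: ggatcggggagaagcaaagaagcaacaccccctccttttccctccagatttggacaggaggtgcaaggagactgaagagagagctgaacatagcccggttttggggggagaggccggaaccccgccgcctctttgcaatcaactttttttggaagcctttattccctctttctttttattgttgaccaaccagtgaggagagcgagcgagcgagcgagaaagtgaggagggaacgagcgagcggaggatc
The Egfr window holds 1 GC box and is 60.8% G and C, and the Erbb4 window holds none and is 54% G and C. Among the windows of all 27025 promoters, 32.9% hold a GC box, and the median is 52% G and C. The core bound by the Notch partner RBPJ, TGGGAA, searched also as its complement on the opposite strand, TTCCCA, is in 21.5% of all windows. Promoters were matched for 5 of the 8 genes, Egfr, Erbb2, Erbb4, Errfi1 and Ptpn11, and none of their windows holds that core in either direction.

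Genes with the pattern most like each of the 8 were ranked among 9450 genes with a mean of at least 10 normalised counts, by Pearson r over the 16 libraries with valve means removed. For Hbegf these were Olfr613 (r = 0.946), an olfactory receptor gene, Nfat5 (0.942), a transcription factor of the osmotic stress response, Wnk4 (0.938), a kinase that regulates ion transport, and Heg1 (0.937), a receptor of the endocardium needed for heart growth. Within the 10 libraries high in skeletal muscle markers their r with Hbegf was 0.956, 0.900, 0.907 and 0.941, and within the 6 low ones 0.501, 0.806, 0.735 and 0.422. For the others, the closest gene was Tbca, a tubulin-folding cofactor, for Egfr (0.952), Slc38a6 for Erbb4 (0.940), Slc7a14 for Nrg1 (0.933), Smc6 for Spry4 (0.887), Gars for Errfi1 (0.872), Pdia5 for Erbb2 (0.862) and Mettl16 for Ptpn11 (0.828). These values are the highest over 9450 genes, over libraries that share the split in skeletal muscle markers, and carry no test.

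The wider pathway, as 7 lists of 100 genes that include the 8, had 88 genes measured, and none was called in any comparison, against 0% of all genes. For the mean of both valves, 52 of the 88 lay above 0 (59.1%) and 36 below, with a median log2 difference of 0.0358, against 52.2% and 0.0129 over all genes. At an unadjusted p below 0.05 there were 3 of 88 (3.41%), against 2.79% of all genes.

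Ligands of the EGF family had 4 of 11 genes measured, all above 0 in the mean of both valves (median 0.521), none called. Beside Hbegf and Nrg1 these were Nrg4, a further neuregulin, at 0.78 (95% interval -0.10 to 1.65), and Tgfa, transforming growth factor alpha, at 0.46 (95% interval -0.59 to 1.51). Nrg4 was barely detected. Mutant aortic libraries had 0.371, 4.86, 3.78 and 4.55 normalised counts, against 0.136, 0.940, 2.67 and 5.26 in wild-type aortic libraries. Mutant pulmonary libraries had 2.34, 1.75, 2.24 and 5.31 normalised counts, against 0, 1.202, 0.695 and 1.83 in wild type, or 13 to 43 reads against 0 to 15. The groups overlapped in both valves. Among the 4 receptors, 2 lay above and 2 below 0 (median -0.0187). Erbb3, whose product lacks an active kinase and signals with ErbB2 in cushion mesenchyme, was at 0.01 with limma and -0.13 with edgeR.

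Of 11 genes for ligand release and coreceptors, 6 lay above and 5 below 0 (median 0.0245), and none was called. Adam12, a metalloprotease that can cut HB-EGF free, was at -0.36 (95% interval -0.91 to 0.19), and Rhbdf2, which brings the protease ADAM17 to the cell surface, at -0.35 (95% interval -1.43 to 0.72). Of 13 receptor inhibitors measured, 8 lay above and 5 below 0 (median 0.0374). Cbl, which tags the EGF receptor for breakdown, was at 0.30 (95% interval -0.08 to 0.68), and Lrig3, of a family of receptor inhibitors, at 0.74 (95% interval -0.24 to 1.72). Lrig3 had a median of 2.23 normalised counts in the 6 libraries with few muscle transcripts and 9.68 in the 10.

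Of 29 adaptors and kinases, 13 lay above and 16 below 0 (median -0.0343). Sos1, the exchange factor that loads Ras, was at 0.33 (95% interval 0.03 to 0.64, adjusted p = 1.00, limma), with 106, 83.3, 83.4 and 60.9 normalised counts in mutant aortic against 67.0, 63.3, 78.7 and 67.0 in wild-type aortic libraries. Its pulmonary values were 98.9, 65.8, 78.1 and 60.3 in mutants, against 62.9, 49.8, 56.3 and 53.8 in wild type, so the groups overlapped. Sos1 had a median of 60.6 in the 6 libraries with few muscle transcripts and 78.4 in the 10, and within these sets its difference was 0.060 and 0.36. Stat5b, a transcription factor that receptor kinases activate, was at -0.37 (95% interval -0.84 to 0.09). Of 10 inhibitors of Ras and ERK, 7 lay above and 3 below 0 (median 0.0851), with Spred2 at 0.37 and Rasal2 at 0.16.

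Genes that ERK signalling induces had 17 of 20 measured, with 12 above and 5 below 0 (median 0.125) and none called. The widest differences among the genes named went in opposite directions. Egr2, an immediate early transcription factor also active in Schwann cells, was at -1.43 (95% interval -2.53 to -0.33, adjusted p = 1.00, limma). Egr2 had 2.10, 3.92, 5.93 and 22.5 normalised counts in mutant aortic against 6.93, 64.8, 27.0 and 6.84 in wild-type aortic libraries, and 1.87, 6.58, 5.04 and 18.3 in mutant pulmonary against 10.1, 23.1, 18.8 and 27.9 in wild-type pulmonary libraries. The groups overlapped in both valves, and within the 6 libraries with few muscle transcripts, with a median of 22.8, the difference of Egr2 was -0.20, against -1.60 within the 10, with a median of 6.25. Fos, a component of the AP-1 transcription factor, was at 0.83 (95% interval 0.01 to 1.65, adjusted p = 1.00, limma), on 5.12 ± 2.06 in mutant and 2.28 ± 1.33 normalised counts in wild-type aortic valves, and 5.06 ± 4.64 in mutant and 2.22 ± 1.43 in wild-type pulmonary valves (SD, n = 4 each). Its difference was 0.37 within the 6 and 1.19 within the 10.

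**Figure D5:**
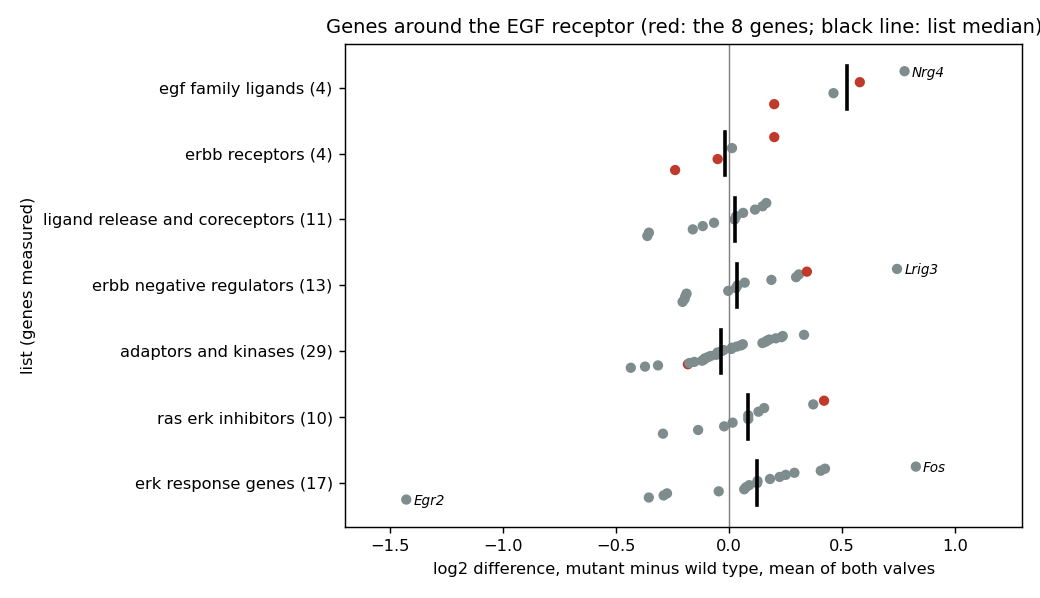
Log2 difference, mutant minus wild type, mean of both valves (horizontal axis), of the 88 measured genes in 7 lists around the EGF receptor, with list medians as black lines and the 8 genes in red. Most genes lie within 0.5 of 0, the list medians lie close to 0 apart from the 4 ligands, and none of the genes passed the threshold.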

How the data were processed

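Per the submitters' processing notes, reads were processed with CASAVA 1.8.2, cutadapt 1.6 and FastQC, then RSEM 1.2.3 on GRCm38. For the scaling and the filter no description was found in the labels. What the authors deposited is 1 normalised signal for each gene and library. At a tolerance of 0.05 read, 100% of values were whole reads, and they equal CPM scaled by trimmed means (TMM) and recomputed with edgeR 4.0.16 (deviation at most 3.7e-07%). Of the identifiers, 13780 had a symbol and 184 had none.

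The main test was limma 3.58.1 (R 4.3.3) on log2(value + 1), which understates the change of low genes, with 1 mean per group over 16 libraries and a mean-variance trend. It was two-sided, with Benjamini-Hochberg adjustment over the 13963 genes reaching 1 in 4 or more libraries, and a threshold of 0.05. It was tested before use on reads simulated with these groups and library sizes and the same dispersion for every gene. The simulation held no litters and no split in skeletal muscle markers, so it cannot show how the test behaves with these. Alternatives were 28 settings, among them edgeR and DESeq2 1.42.0 on recovered reads. The labels pair mutant and wild-type libraries of a valve by litter (5 litters, 3 with both valves). Their deviations from group means had correlations of 0.477, 0.011, 0.205 and 0.642 within aortic pairs and 0.49, -0.035, 0.066 and 0.453 within pulmonary pairs. Gene positions and lengths are from GENCODE on GRCm38. Single values and relations had exact permutation tests over libraries. Reads carry no molecular identifiers that any label mentions, so they need not be independent molecules. Named were the 8 genes, Jag1, up to 2 genes of each list with the smallest p and the genes of most similar pattern. Members, lists and tests were chosen with earlier results of these data known.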

Additional observations from a re-analysis of the deposited data

Results flagged for a closer look

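Spry4 in mutant pulmonary library 1 stood at 48.3 normalised counts, far above the 24.8 to 27.9 of the other 3 libraries of its group. The gap to the nearest library was 0.866 of the range of the group, above the 95% critical value of Dixon's test for 4 samples. It was the only 1 of 32 gene and group combinations beyond it, and chance alone passes it in about 1 in 20.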

How the results depend on the processing

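Of the 8 genes and of the 88 pathway genes, 0 were called in any comparison under any of the 28 settings. Counts of all genes called, 0 in the main fits, became 3 in the aortic valve in the 6 libraries with few muscle transcripts and 3 in the other 10. In the pulmonary valve they became 2 with DESeq2, 1 in the 6 libraries and 2 in the 10. For the mean of both valves they became 1 with the litter block, 5 with DESeq2, 2 with skeletal muscle markers and 2 with valve mesenchyme markers as a covariate, 3 in the 6 libraries and 3 in the 10. Leaving out 1 library at a time gave 0 to 2 in the aortic valve and 0 to 3 for the mean, with 2 and 3 without wild-type aortic 4 and 2 for the mean without wild-type pulmonary 2. The fits within the 6 or 10 libraries and the mesenchyme covariate were chosen after seeing the data, and the 6 leave 1 library in each mutant group, assumed to vary like the others. The litter block changed no call of the 8 genes. For Hbegf, a sign-flip test over litter pairs gave exact p = 0.75 in the aortic and 0.875 in the pulmonary valve, where 4 pairs allow no p below 0.125.

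Signs turned as follows, and the cause was not tested. In the aortic valve, within the 10 libraries, Egfr was at -0.38, Erbb2 0.12, Erbb4 0.68, Errfi1 -0.090 and Spry4 -0.28, and within the 6, Egfr was at -0.011. In the pulmonary valve, Hbegf was at 0.20 and Egfr at -0.0022 with the muscle covariate, Hbegf at 0.12 with the mesenchyme covariate, Hbegf at 0.43, Egfr at -0.32 and Ptpn11 at 0.015 within the 10, Erbb2 at 0.61 within the 6, and Erbb4 at -0.13 with edgeR and -0.12 with DESeq2. For the mean, Egfr was at -0.35, Erbb4 at 0.69, Errfi1 at -0.0049, Spry4 at -0.0071 and Erbb3 at -0.031 within the 10. Within the 6, Erbb2 was at 0.049, Rhbdf2 at 0.31 and Lrig3 at -0.18. Erbb4 was at 0.14 with the muscle and 0.051 with the mesenchyme covariate, and Erbb3 at -0.13 with edgeR and with DESeq2. Jag1 passed for the mean with DESeq2 (-1.76, adjusted p = 0.0134).

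Leaving out 1 library at a time moved Hbegf between -0.078 and 0.97 in the aortic valve, between -0.70 and 0.37 in the pulmonary valve and between -0.10 and 0.44 for the mean. Egfr ranged over -0.27 to 0.49, -0.16 to 0.64 and -0.011 to 0.40 in the same order, and Erbb4 over -0.74 to 0.30, -0.51 to 0.57 and -0.39 to 0.23. Also crossing 0 were Erbb2 in the pulmonary valve (-0.50 to 0.017), Errfi1 (-0.034 to 0.54) and Nrg1 (-0.022 to 1.37) in the aortic valve and Erbb3 for the mean (-0.19 to 0.25). Among the 8 genes, depth was lowest behind Nrg1 in wild-type aortic 3, with 7 reads.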
